A study of Mus musculus with 40 samples.

Results

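The genes described here encode the proteins of the cytosolic ribosome. They were chosen by name: protein-coding genes whose symbol is Rpl, Rplp or Rps followed by a number and at most the letters a, x, y or l, together with Rpsa. The rule found 81 genes, 50 of the large subunit and 31 of the small subunit, among the 54532 genes of the deposited table. The data are bulk RNA sequencing of mouse uterus, 40 libraries in 8 groups of 5, deposited as FPKM, fragment numbers scaled to gene length and library size. The groups at each harvest time were doxorubicin with AMH, doxorubicin alone, AMH alone, and a control given PBS or saline. Doxorubicin is an anthracycline that damages DNA and was dosed at 3 mg/kg, AMH is anti-Müllerian hormone and was dosed at 0.75 mg/kg. According to the study's design text the mice were prepubertal (postnatal day 25), doxorubicin was given weekly in 2 doses, AMH was given alongside it, and uteri were collected 4 h or 24 h after treatment. Strain and genotype are not given in the labels. The labels do not say that each library came from a different animal, so p-values here measure the spread between libraries, which may be partly technical.

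Each ribosome holds a single copy of nearly all of these proteins, and the genes are among the most strongly transcribed in growing cells. Most of their mRNAs begin with a cytosine followed by a run of pyrimidines, the TOP motif, through which mTORC1 and LARP1 control their translation and stability. Assembly of the subunits needs ribosomal RNA made by RNA polymerase I and a large set of assembly factors in the nucleolus, and a surplus of some ribosomal proteins, of which RPL5 and RPL11 are the best known, binds MDM2 and stabilises p53. The uterus makes more ribosomes when it grows under oestrogen. These are background facts, not results of these data.

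The libraries held 16251563 to 27391049 reads in genes, rebuilt from FPKM and gene length. All 13 markers of uterine identity, which include the AMH receptor Amhr2, were above 0 in every group, with summed levels of 1720 to 4290 FPKM per library. Markers of oviduct and ciliated cells were high in 8 libraries (doxorubicin + AMH 4 h library 5 and 24 h library 4, doxorubicin 4 h libraries 3 and 4 and 24 h libraries 3, 4 and 5, control 4 h library 4). Oestrogen-responsive genes were high in 8 libraries (doxorubicin 4 h library 3 and 24 h libraries 1, 3 and 4, AMH 24 h library 3, control 24 h libraries 1, 2 and 4). Both sets were marked after the data were seen. For some comparisons, not all, the result without them is given beside the result. In bulk tissue, fewer cells of a type and less RNA per cell cannot be told apart.

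Ribosomal protein genes stood near the top of the uterine transcriptome. Averaged over the 40 libraries, 75 of the 81 were above 10 FPKM, 69 were above 100 FPKM and 42 were among the 100 genes with the highest level. The P-stalk genes Rplp1 and Rplp0, whose proteins recruit elongation factors, averaged 2865 and 1756 FPKM over all libraries. Rpl4, which lines the peptide exit tunnel, averaged 1077 FPKM. In the small subunit the highest were Rps15, of the head of the subunit, at 1347 FPKM, X-linked Rps4x at 990.7 FPKM, and the S6 kinase substrate Rps6 at 847.5 FPKM. FPKM divides by the whole gene model of the table. When reads were divided by coding length alone, Rpl41, which encodes a very short peptide, ranked above Rplp1, and Rplp1 above Rplp0.

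The low end of the family held tissue-restricted paralogues and a pair of genes for core proteins. The muscle paralogue Rpl3l averaged 0.203 FPKM, while its widely expressed counterpart Rpl3, near the peptidyl transferase centre, averaged 525.1 FPKM. The testis paralogue Rpl39l averaged 0.0461 FPKM, against 139.6 FPKM for Rpl39, a protein of the exit tunnel. The testis paralogue Rpl10l was listed at 0 in all 40 libraries, against 564.3 FPKM for Rpl10, which joins the large subunit late. Rpl36al averaged 0.559 FPKM, against 235.1 FPKM for Rpl36a. Rps4l was not a protein-coding member in this table. Rps10 at 4.081 FPKM and Rpl24 at 1.726 FPKM, in contrast, encode core proteins of every ribosome. Of the reads of Rps10 and its near-identical copies 96.2% lay in the copies, and of those of Rpl24 72.8%, and both genes also share their strand with an annotated read-through gene (RPS10-NUDT3 and Gm28037). The processed copy Rps10-ps2 alone averaged 472.5 FPKM. Rpl13a, at rank 75 of the members with 22.2 FPKM, also shares its strand with an annotated gene (Gm45713), so its level is uncertain too. Its copies held 3.04% of the reads.

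**Figure D1:**
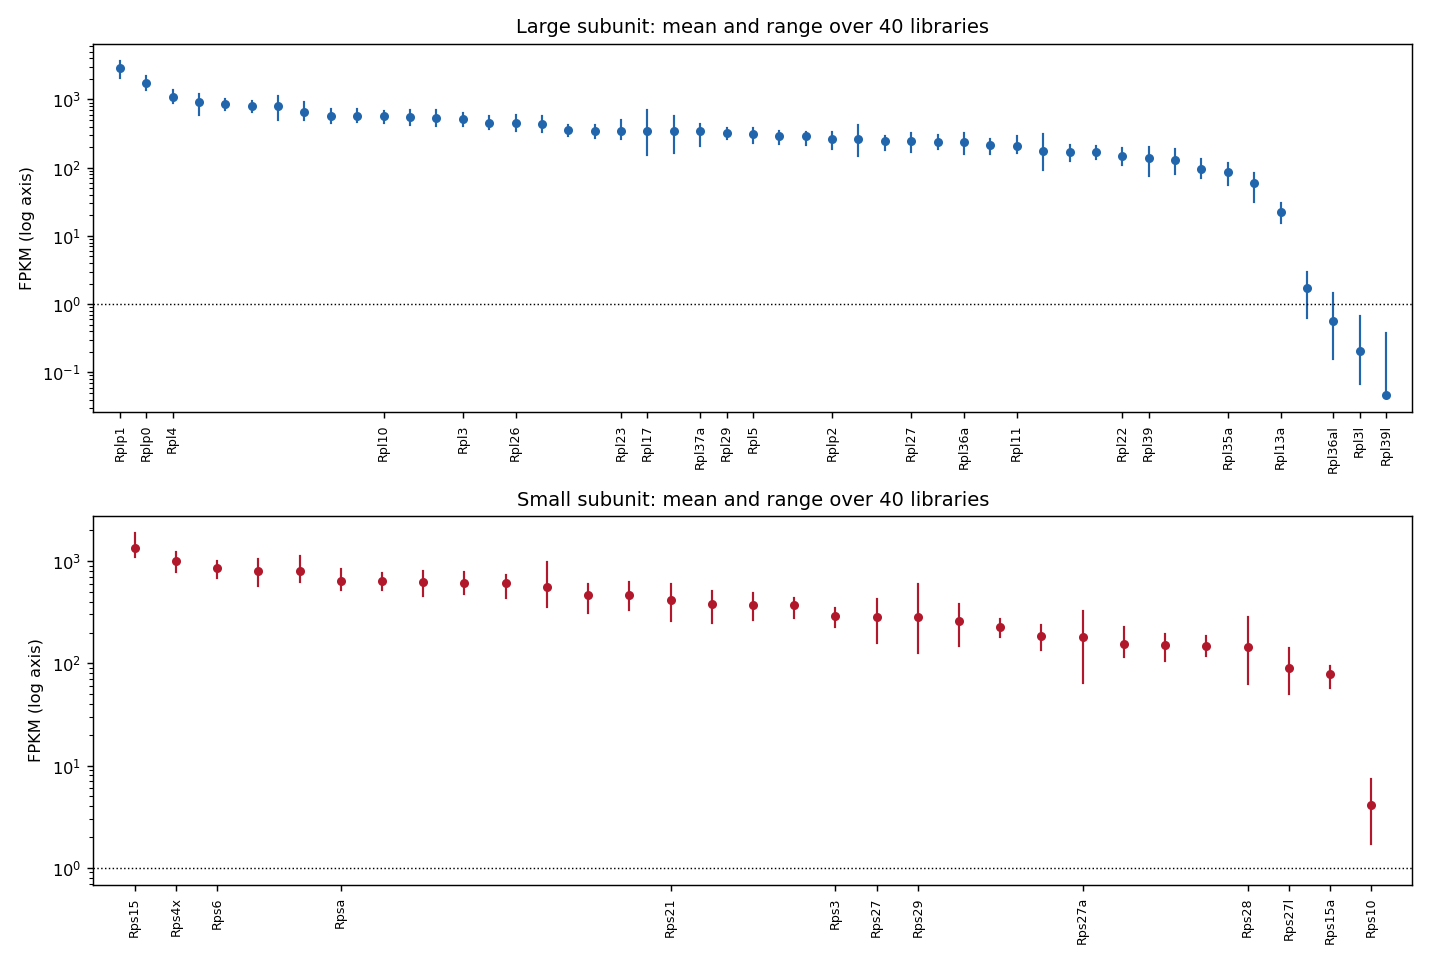
Level of each ribosomal protein gene, with the large subunit above and the small subunit below. The points are means over 40 libraries and the lines run from the lowest library above 0 to the highest, on a log axis of FPKM, with a dotted line at 1 FPKM and names under the genes chosen by role, level or change. Of the 81 genes 69 lie above 100 FPKM, Rplp1 is highest at 2865 FPKM, and Rpl10l, at 0 in all libraries, is not drawn.

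Such copies are a general property of the family. A search of coding sequences (at least 95% identity over at least 90% of the length) found 556 copies for 75 of the 81 genes, 524 of them annotated as pseudogenes, and 27 of the copies averaged above 100 FPKM. More reads lay in the copies than in the gene for 4 genes, Rps10, Rpl24, Rpl17 (67.0%) and Rpl21 (60.0%). Rps27 has a copy with an identical coding sequence, Rps27rt, which averaged 226.5 FPKM, and Rpl23 has the copy Gm9794, which averaged 559.9 FPKM. How the authors' counting split reads between such copies is not given in the sources used here, so the levels of these genes are uncertain. Rps27l, Rps3 and Rpl8 are among the 6 members with no copy by this search.

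Across the 40 libraries most members were steady. The coefficient of variation had a median of 22.95% for the 10 members with a coding sequence under 300 bases, 12.82% for 27 members of 300 to 450 bases, 12.6% for 25 members of 450 to 700 bases and 11.36% for 13 longer members, counting members above 10 FPKM. The group means varied most for Rps27a (28.6%), Rps27l (19.33%), Rpl17 (19.29%), Rps29 (16.25%) and Rps28 (15.7%). Rps27a encodes a fusion of ubiquitin with a small subunit protein, and its highest library was 5.07 times its lowest. Rpl17 had a 4.64-fold range over libraries. Adding the reads of near-identical copies changed the coefficient of variation over libraries little for Rps27a, which was 40.1% with copies and 43.6% without, and strongly for Rps10, which was 10.4% with copies and 35.6% without.

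To show what the genes share at their 5′ end, the 15 bases on each side of the annotated start were read for 61 members with an entry in the RefSeq promoter table (GRCm38.p6, the assembly named mm10). Capitals mark a C followed by at least 4 bases that are each C or T, beginning within 5 bases of the start on the gene's strand. The first 4 have such a run: Rps27 and Rps21, which were higher with AMH at 4 h, Rps27l, the member that was lower there, and Rps6. The last 3, also higher with AMH, have none in this window.
Rps27 (chr3:90213634-90213663, minus strand): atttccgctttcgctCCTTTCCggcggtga
Rps21 (chr2:180257364-180257393, plus strand): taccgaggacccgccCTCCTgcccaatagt
Rps27l (chr9:66946071-66946100, plus strand): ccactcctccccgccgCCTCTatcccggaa
Rps6 (chr4:86857353-86857382, minus strand): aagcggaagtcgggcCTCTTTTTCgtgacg
Rps28 (chr17:33824548-33824577, minus strand): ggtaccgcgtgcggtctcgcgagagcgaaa
Rpl23 (chr11:97782425-97782454, minus strand): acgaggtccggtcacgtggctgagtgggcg
Rpl22 (chr4:152325711-152325740, plus strand): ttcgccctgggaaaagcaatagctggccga

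The run was present in 27 of 61 members (44.3%) and in 18.3% of all 27025 genes of that table. It depends on the annotated start, and for 28 of the 61 members this start lay within 20 bases of the gene edge in the deposited table. Further motifs were searched on both strands of the 300 bases from 250 before to 50 after the start. CTTCCG, the core bound by ETS factors, was in 42 members (68.9%) and in 17.1% of all genes. AAGATGGCG, a YY1 motif, was in 3 members (4.92%) and in 1.49% of all genes. GGGCGG, bound by SP1, was in 36 members (59%) and in 35.6% of all genes, and TATAAA was in 5 members (8.2%) and in 14.1% of all genes. A CTTCCG match at the start itself also meets the pyrimidine rule. Among the members that rose with AMH at 4 h, described next, 8 of 22 with a promoter had the run (36.4%), against 18 of 35 members (51.4%) that did not pass the test, and CTTCCG was in 12 of those that rose (54.5%) and 28 of those that did not pass (80%). A match is a description of these letters and shows no binding.

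AMH alone at 4 h gave the main change of the family. The ribosomal protein genes together made up 12.64, 12.29, 11.74, 12.67 and 11.51% of all FPKM in the 5 AMH libraries, and 9.956, 9.603, 10.92, 9.953 and 10.39% in the 5 control libraries. Every AMH library was above every control library. The mean share was 12.17 ± 0.53% with AMH and 10.16 ± 0.51% in controls (SD, n = 5 each). The large subunit held 7.42 ± 0.32% with AMH and 6.19 ± 0.31% in controls, and the small subunit 4.75 ± 0.21% with AMH and 3.98 ± 0.21% in controls (SD, n = 5 each). Counted as rebuilt reads rather than FPKM, the family took 6.09 to 6.83% with AMH and 4.96 to 5.93% in controls. The ratio of the large to the small subunit stayed between 1.51 and 1.59 in all 40 libraries.

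**Figure D2:**
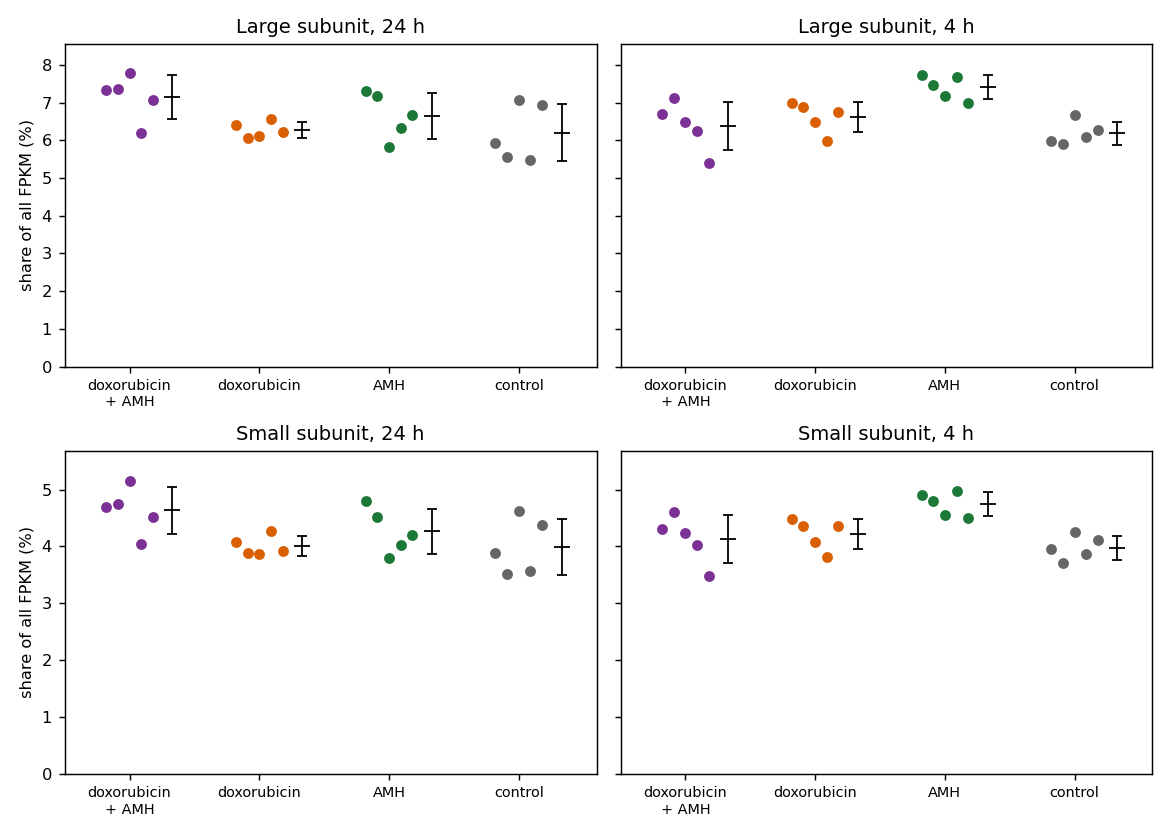
Share of all FPKM held by ribosomal protein genes, with the large subunit above, the small subunit below, 24 h at left and 4 h at right. Each point is a library, and the bars are the mean and SD of 5 libraries. The 5 AMH libraries at 4 h lie above the 5 control libraries in both subunits, with means of 7.42% and 6.19% for the large subunit.

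Of the 81 members, 78 passed the filter of 1 FPKM in at least 5 libraries and were tested among the 16226 genes that passed, by limma on log2(FPKM + 1) with Benjamini-Hochberg adjustment at 0.05. With AMH at 4 h, 27 members rose (17 large, 10 small) and 1 fell (Rps27l). The background was high: 20.0% of all genes tested passed in this comparison, 9.13% higher and 10.9% lower. The members' median log2 change was 0.251, against 0.009 over all genes tested, and 69 of 78 were above 0. Members of a library tended to move together: 6 of 78 were above the control median in control library 2, and 70 in control library 3. Counts of members above or below 0, also in later comparisons, are therefore not counts of independent observations. In 23 members every AMH library was above every control library, and in 2 every AMH library was below. Here and below, such separation was looked for among members only, so these counts have no share of all genes beside them. An unadjusted p under 0.05 was found for 50 of 78 members and for 5797 of all 16226 genes.

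Rpl23 (ENSMUSG00000071415, chr11:97777527-97782437), whose protein can bind MDM2, had the smallest adjusted p. Its level was 457.5, 447.7, 379.6, 453.5 and 374.5 FPKM in AMH libraries, and 299.3, 263.5, 336.2, 277.3 and 282.8 FPKM in controls. The groups did not overlap, and the log2 change was 0.53 ± 0.11 (SE, adjusted p = 0.0046 by limma). Rpl22 (ENSMUSG00000028936, chr4:152325742-152334071), an RNA-binding protein of the large subunit, had 191.7, 174.7, 173.2, 175.4 and 169.4 FPKM with AMH, and 131.9, 112.5, 150.3, 122.6 and 130.3 FPKM in controls. Here too the groups were apart, with a log2 change of 0.45 ± 0.11 (adjusted p = 0.0072 by limma).

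Among members that rose, the short genes Rps28 and Rps27 of the small subunit had the largest log2 changes, followed by Rpl23 and then Rps21. Rps28 (ENSMUSG00000067288, chr17:33819027-33824562) had 211.9, 158.5, 175.2, 195.6 and 122.2 FPKM with AMH, and 77.33, 80.33, 144.6, 119.9 and 114.9 FPKM in controls. The groups overlapped in the lowest AMH and the highest control library, and the log2 change was 0.70 ± 0.23 (adjusted p = 0.033 by limma). Rps27 (ENSMUSG00000090733, chr3:90212522-90213651) had 415.5, 343.9, 319.8, 412.5 and 285.6 FPKM with AMH, and 206.5, 157.6, 288.3, 238.5 and 262.1 FPKM in controls. They overlapped by the same margin of 1 library on each side, and the log2 change was 0.64 ± 0.20 (adjusted p = 0.026 by limma). Rps21 (ENSMUSG00000039001, chr2:180257377-180258445) had 539.9, 437.1, 402.6, 596.3 and 393.5 FPKM with AMH, and 294.5, 285.0, 387.6, 332.1 and 366.0 FPKM in controls. Its groups did not overlap, and the log2 change was 0.50 ± 0.16 (adjusted p = 0.027 by limma). Rpl35a and Rpl37a of the large subunit also rose, to 102.6 ± 10.1 and 393.5 ± 43.4 FPKM with AMH, against 74.1 ± 11.2 and 286.1 ± 34.3 FPKM in controls (SD, n = 5 each).

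By role, of the proteins that can bind MDM2 or p53 mRNA, Rpl23 rose under AMH at 4 h, as described above. Rpl11, Rpl5 and Rpl26 were also higher on average, but of these only Rpl11 passed. Rpl11 rose to 229.4 ± 14.0 FPKM, against 179.9 ± 12.0 FPKM in controls, with no overlap (adjusted p = 0.017 by limma), while its partner in the 5S particle, Rpl5, had 357.1 ± 25.6 FPKM with AMH and 309.6 ± 43.3 FPKM in controls (adjusted p = 0.16 by limma). Rpl26 had 508.4 ± 36.6 FPKM with AMH and 448.5 ± 44.9 FPKM in controls (adjusted p = 0.22 by limma). None of the 3 stalk genes passed: the log2 change of Rplp0 was 0.18, of Rplp1 0.21 and of Rplp2 0.28 (adjusted p = 0.22, 0.15 and 0.054 by limma). In Rplp2 the groups did not overlap. Of genes at functional centres of the subunits, Rpl10, Rpl3 and Rps3 of the mRNA entry channel rose, by log2 changes of 0.28, 0.30 and 0.27, without overlap between groups, and so did Rpl36a, by 0.39. Rps4x, Rps6 and Rpl39 had log2 changes of 0.27, 0.22 and 0.45 that did not pass (adjusted p = 0.08, 0.082 and 0.052 by limma).

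A few members did not follow this shift. Rpsa, also known as the laminin receptor, had 664.3 ± 27.0 FPKM with AMH and 677.1 ± 61.8 FPKM in controls, and Rpl13a, a part of the interferon-responsive GAIT complex, 22.4 ± 1.8 FPKM with AMH and 21.7 ± 2.3 FPKM in controls (SD, n = 5 each). Their log2 changes were −0.02 and 0.05 (adjusted p = 0.89 and 0.79 by limma). The low paralogue Rpl36al had 0.310 ± 0.115 FPKM with AMH and 0.635 ± 0.094 FPKM in controls, groups that did not overlap (log2 change −0.32, adjusted p = 0.15 by limma). Rps27a, Rps29 and Rpl17, in contrast, had log2 changes of 0.83, 0.60 and 0.50, above the members' median of 0.251, that did not pass, with SEs of 0.37, 0.25 and 0.40. Of the reads of Rpl17 and its copies 67.0% lay in the copies, so its own change is uncertain.

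The 1 member that fell was Rps27l (ENSMUSG00000036781, chr9:66946086-66949516), the close paralogue of Rps27 that in human cells is a direct p53 target. Its level was 60.83, 64.06, 54.12, 55.16 and 50.31 FPKM in AMH libraries, and 85.03, 87.7, 90.54, 103.6 and 79.76 FPKM in controls. All AMH libraries were below all controls. The log2 change was −0.64 ± 0.18 (SE, adjusted p = 0.016 by limma), the opposite of Rps27. A list of 10 genes around p53 was mixed with AMH at 4 h, with 5 of 10 above 0 and a median log2 change of 0.007. Of these 3 fell: Trp53 itself, at 30.4 ± 2.4 FPKM with AMH and 42.2 ± 2.0 FPKM in controls, Zmat3, at 2.36 ± 0.61 FPKM with AMH and 4.46 ± 0.87 FPKM in controls, and Bax, at 19.3 ± 2.0 FPKM with AMH and 29.2 ± 4.8 FPKM in controls. Cdkn1a, the p21 gene, had a log2 change of −0.63 that did not pass (adjusted p = 0.21 by limma), and so did Mdm4, Bbc3 and Mdm2, with log2 changes of 0.42, 0.37 and 0.21 (adjusted p = 0.06, 0.3 and 0.31 by limma).

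**Figure D3:**
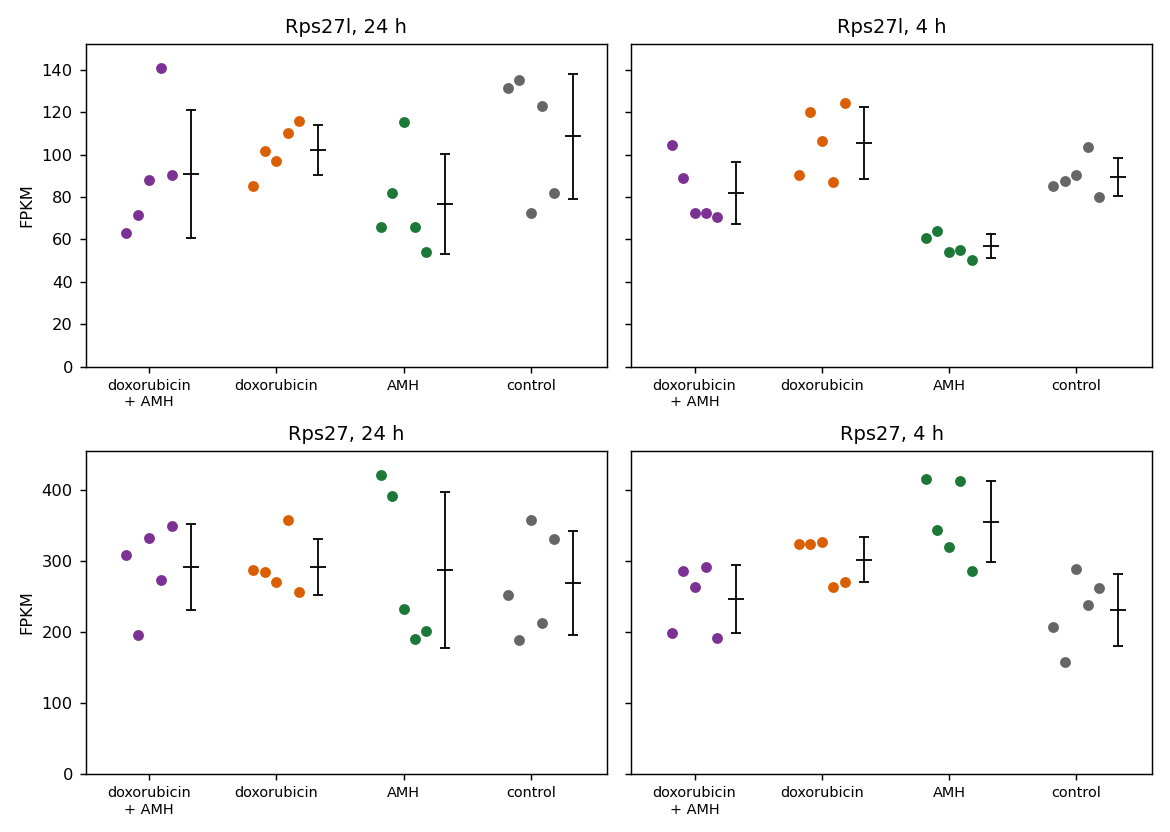
FPKM of Rps27l above and Rps27 below, at 24 h left and at 4 h right. Each point is a library, and the bars are the mean and SD of 5 libraries. At 4 h the 5 AMH libraries of Rps27l, 50.31 to 64.06 FPKM, lie below all controls, while Rps27 averages 355.5 FPKM with AMH and 230.6 FPKM in controls.

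Rps27l did not pass with doxorubicin, where 6 of the 10 genes around p53 rose at 4 h. With doxorubicin alone at 4 h it had 90.17, 120.1, 106.4, 86.86 and 124.2 FPKM, against the control values above, which overlap with them. The log2 change was 0.23 ± 0.18 (adjusted p = 0.66 by limma), while Cdkn1a changed by 3.39 (adjusted p = 6.6e-07 by limma) and Mdm2 by 0.93 (adjusted p = 0.00049 by limma) in the same libraries. Bax and Zmat3, with log2 changes of 0.32 and 0.50, did not pass there either (adjusted p = 0.43 and 0.22 by limma). With doxorubicin + AMH at 4 h Rps27l had 104.4, 88.9, 72.66, 72.55 and 70.45 FPKM, all above the AMH libraries, a log2 change of 0.50 against AMH that did not pass (adjusted p = 0.28 by limma). At 24 h it had 85.3, 101.9, 97.18, 110.1 and 116.0 FPKM with doxorubicin, 66.03, 82.01, 115.3, 65.9 and 54.23 FPKM with AMH, and 131.3, 135.2, 72.29, 123.0 and 81.67 FPKM in controls. The 24 h groups overlapped, and neither treatment passed against control (log2 change −0.05 for doxorubicin and −0.50 for AMH, adjusted p = 0.86 and 0.17 by limma). In both the AMH and the control group at 24 h the high values of Rps27l were in the libraries high in oestrogen-responsive genes. These were AMH library 3 and control libraries 1, 2 and 4. The doxorubicin group at 24 h did not show this. Its libraries 1, 3 and 4, also high in these genes, had 85.3, 97.18 and 110.1 FPKM. The other doxorubicin libraries had 101.9 and 116.0 FPKM. The part of oestrogen-responsive genes in these values was not tested.

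**Figure D4:**
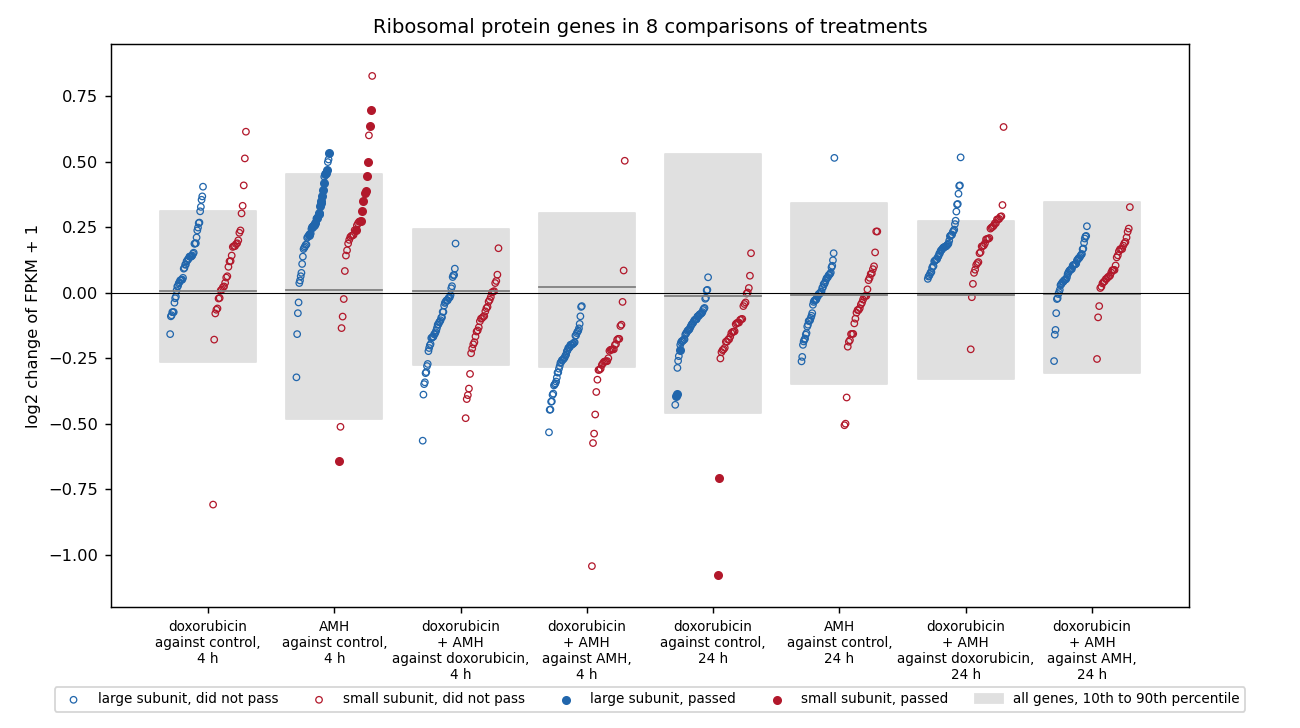
Log2 change of FPKM + 1 for the 78 tested ribosomal protein genes in 8 comparisons, large subunit in blue and small subunit in red, filled where the adjusted p was under 0.05. Grey boxes hold all genes tested from the 10th to the 90th percentile, with a line at their median. With AMH at 4 h the median of the members is 0.251 and that of all genes is 0.009, and with doxorubicin + AMH against AMH at 4 h the members lie below 0 except for 2.

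The count of members that passed with AMH at 4 h depended on single libraries. It was 28 in all libraries. Without AMH library 1, 3 or 4 it was 10, 18 and 13, and without control library 2 or 4 it was 8 and 14. With no filter on low values it was 9, with only the 2 groups in the fit 44 and with library weights 53. Without the libraries high in oviduct markers it was 20, and without those high in oestrogen-responsive genes 31. The background of 20.0% of all genes belongs to the main fit, and no such share is given beside the counts of these other settings. Rpl23, Rpl35a and Rps27l passed under each of the 13 other settings and with each of the 10 libraries left out. With each library left out in turn Rpl37a kept its call in 9 of 10 fits, Rps27 in 6, and Rps28 and Rps21 in 5. In the same comparison, where 20.0% of all genes tested passed, 1 of 14 smooth muscle genes rose and 4 fell. No oviduct gene of 11 passed (summed level 84.9 to 122.6 FPKM with AMH and 71.2 to 220.6 FPKM in controls), and 3 of 19 oestrogen-responsive genes fell and 1 rose. The part of these 3 lists in the result was not tested. The 10 members coding for under 300 bases had a median log2 change of 0.478. Members of 300 to 450, of 450 to 700 and of 700 bases or more had medians of 0.254, 0.25 and 0.219. Other nuclear genes coding for under 300 bases had −0.085 (295 genes), and the part of coding length was not tested.

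Genes that act on ribosomes moved in different directions with AMH at 4 h, where 9.13% of all genes tested rose and 10.9% fell. Elongation and initiation factors and other TOP mRNAs went with the ribosomal proteins: 7 of 22 rose and 1 fell, with a median log2 change of 0.179. Among them were Eif4b, a cofactor of the initiation helicase, at 263.8 ± 29.4 FPKM with AMH and 141.2 ± 9.6 FPKM in controls, and the elongation factor Eef2, at 1945 ± 208 FPKM with AMH and 1121 ± 95 FPKM in controls (SD, n = 5 each). Their log2 changes were 0.89 and 0.79 (adjusted p = 0.0051 and 0.0084 by limma). Ribosome assembly factors went the other way: 47 of 75 fell and 1 rose, with a median of −0.497. Bop1, needed for large subunit maturation, had 8.84 ± 2.03 FPKM with AMH and 22.8 ± 5.0 FPKM in controls. Ltv1, which works in small subunit maturation, had 9.22 ± 1.82 FPKM with AMH and 20.2 ± 2.8 FPKM in controls, and Mrto4, a stand-in for the stalk protein P0 during assembly, 9.30 ± 0.99 FPKM with AMH and 19.8 ± 3.7 FPKM in controls.

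Of the mitochondrial ribosomal proteins, which serve a separate ribosome, 28 of 77 fell and 1 rose (median −0.336), among them Mrps18b by a log2 change of −0.76. Of 20 RNA polymerase I genes 4 fell, including the subunits Polr1e and Polr1a, and 1 rose, near the background of 20.0% of all genes tested. Among 25 regulators of TOP mRNAs and mTORC1, 3 rose and 6 fell: the mTOR inhibitor Deptor rose to 16.6 ± 1.0 FPKM with AMH, against 6.32 ± 1.23 FPKM in controls, and the cap-binding protein Eif4e fell to 10.6 ± 1.4 FPKM, against 18.1 ± 2.6 FPKM in controls. Of 7 tested ribosomal proteins outside the name rule, Rpl7l1, a paralogue of Rpl7, fell (log2 change −0.54, adjusted p = 0.013 by limma). Over the settings run, 37 to 62 assembly factors fell, with medians of −0.53 to −0.44. The count of mitochondrial ribosomal proteins was 10 without the libraries high in oviduct markers, 18 with no filter, 52 with only the groups compared and 56 with library weights.

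**Figure D5:**
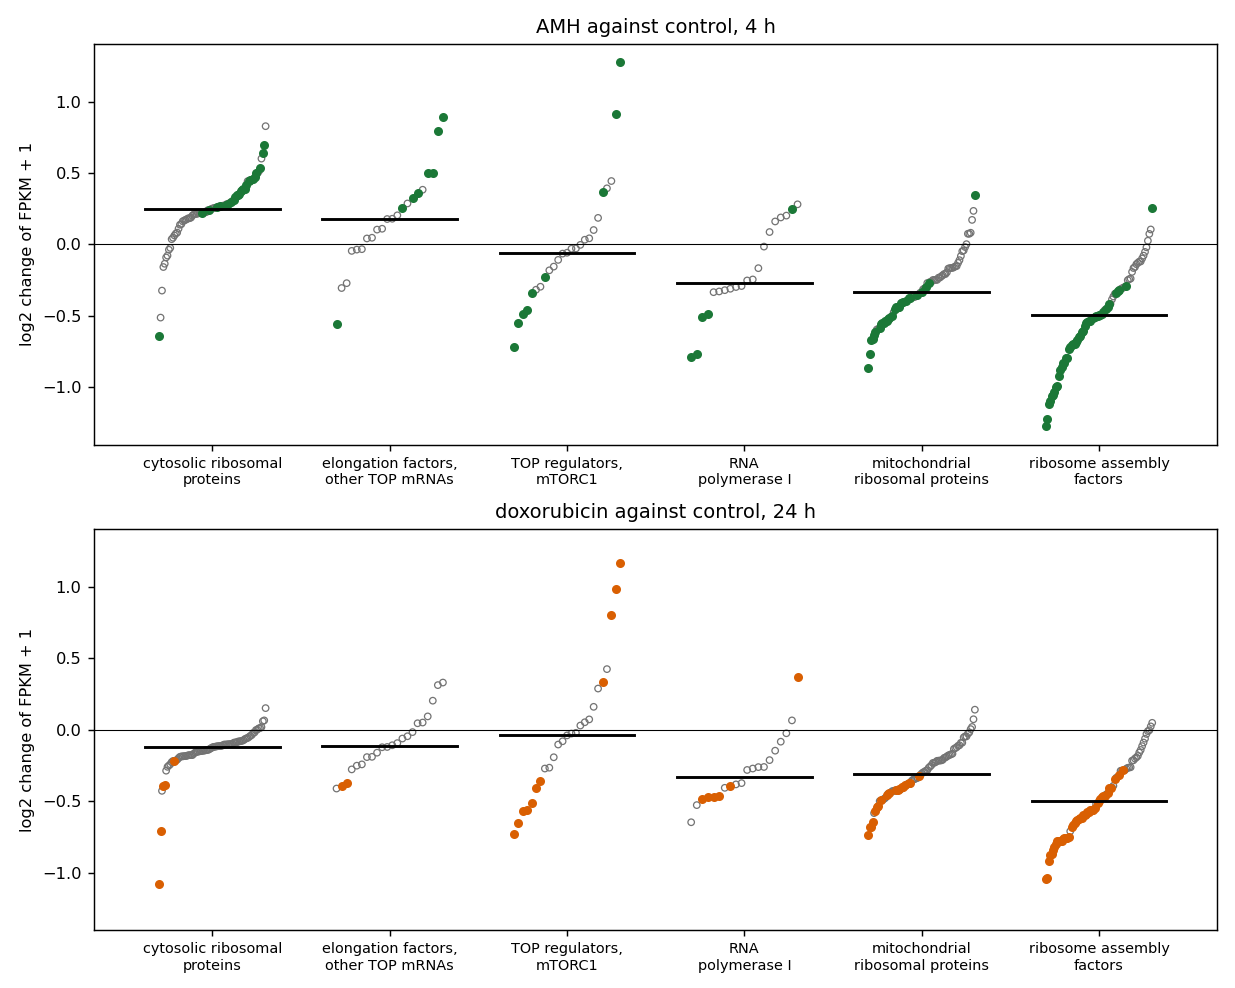
Log2 change of FPKM + 1 for 6 gene lists, with AMH against control at 4 h above and doxorubicin against control at 24 h below. Each point is a gene, filled where the adjusted p was under 0.05, and bars are medians. Above, ribosomal proteins (median 0.251) lie opposite to assembly factors (median −0.497), and below both medians are under 0.

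With doxorubicin alone at 24 h 5 members fell and none rose, where 18.4% of all genes tested passed, 8.44% higher and 9.95% lower. The share of members that passed, 6.41%, was below this background. The ribosomal share of all FPKM was 10.48, 9.944, 9.983, 10.84 and 10.15% with doxorubicin, and 9.824, 9.093, 11.71, 9.048 and 11.31% in controls, groups that overlapped. The median log2 change of the members was −0.12 and 71 of 78 were below 0, but this direction depended on the scaling: after scaling each library to the genes other than ribosomal proteins it was 0.02 with 42 of 78 above 0, and with voom on rebuilt reads 0.01. Those settings moved the median of all genes to 0.10 and 0.13, and relative to it the members were at −0.08 and −0.11. All calls split as 1369 higher and 1615 lower in the deposited scale, 2177 higher and 601 lower with the first setting and 2579 higher and 677 lower with voom.

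Rpl27 (ENSMUSG00000063316, chr11:101442298-101445529), a large subunit surface protein, had 236.6, 206.8, 196.7, 216.8 and 237.8 FPKM with doxorubicin, and 312.0, 320.6, 262.1, 302.5 and 245.6 FPKM in controls. No libraries overlapped, and the log2 change was −0.39 ± 0.10 (adjusted p = 0.0089 by limma). Rpl29 (ENSMUSG00000048758, chr9:106429454-106431568), a heparin-binding protein of the large subunit, had 345.4, 303.0, 269.7, 321.5 and 303.4 FPKM with doxorubicin, and 380.9, 350.5, 349.6, 358.3 and 351.7 FPKM in controls. The groups were apart by a narrow gap, and the log2 change was −0.22 ± 0.07 (adjusted p = 0.038 by limma). This call was lost under 8 of 13 other settings, among them adding the reads of its copies (11.9% of reads, adjusted p = 0.061) and median-of-ratios scaling (adjusted p = 0.051), and without any 1 of 6 of the 10 libraries. Rpl13a (ENSMUSG00000074129, chr7:45125558-45128761) had 23.68, 17.36, 17.2, 22.61 and 18.84 FPKM with doxorubicin, and 29.89, 26.85, 27.63, 21.39 and 25.84 FPKM in controls. Control library 4 lay within the doxorubicin range, and the log2 change was −0.39 ± 0.11 (adjusted p = 0.017 by limma).

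Rps10 and Rps27a of the small subunit also fell. Rps10 (ENSMUSG00000052146, chr17:27630418-27636669) had 3.261, 2.414, 2.417, 3.46 and 2.945 FPKM with doxorubicin, and 6.787, 4.541, 3.746, 5.923 and 6.128 FPKM in controls. The groups did not overlap (log2 change −0.71 ± 0.20, adjusted p = 0.019 by limma), but with the reads of its copies added the change was −0.17 and did not pass. Rps27a (ENSMUSG00000020460, chr11:29545846-29548109) had 88.77, 70.62, 180.2, 284.5 and 84.26 FPKM with doxorubicin, and 324.5, 318.8, 252.5, 230.2 and 193.3 FPKM in controls. The doxorubicin libraries spread from the lowest values to 1 above most controls (log2 change −1.08 ± 0.37, adjusted p = 0.04 by limma). Its copies held 5.1% of the reads. Of the 13 other settings Rpl27 kept its call in 11, Rps10 in 9, Rpl13a in 8 and Rps27a in 7, and with each library left out in turn they kept it in 10, 6, 7 and 3 of 10 fits.

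The count of members that fell depended on single libraries of both groups and on the fit. The 3 control libraries high in oestrogen-responsive genes (summed level of the list 778.9 to 6415 FPKM in controls, 1031 to 1929 FPKM with doxorubicin) had the 3 lowest ribosomal shares, and without all libraries high in these genes, which leaves 2 libraries a group, 0 members passed in limma, with a median of −0.22 and 7 members under an unadjusted p of 0.05. With only the 2 groups in the fit 0 members passed, although 6 had an unadjusted p under 0.05. There were 2 after scaling to other genes, with voom and without the libraries high in oviduct markers, 3 with no filter, 3 without control library 2 or 4, and 1 without doxorubicin library 2 or 3 or control library 1. Of 14 smooth muscle genes 13 fell, with summed levels of 1793 to 2964 FPKM with doxorubicin and 3727 to 5758 FPKM in controls, and oviduct markers summed to 96.4 to 487.5 FPKM with doxorubicin and 65.7 to 141.1 FPKM in controls. Their part in the result was not tested.

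Genes of the pathway lists also fell with doxorubicin at 24 h: 46 of 75 assembly factors, among them the box C/D protein Nop56 by a log2 change of −1.04 and the large subunit factor Brix1 by −0.64, 19 of 77 mitochondrial ribosomal proteins, and 5 of 20 RNA polymerase I genes, while 1 rose. Of all genes tested 8.44% rose and 9.95% fell there. Without the libraries high in oestrogen-responsive genes 0 assembly factors and 0 mitochondrial proteins passed in limma (1 and 2 had an unadjusted p under 0.05), and the medians were 0.01 and 0.03, against −0.50 and −0.31 with all libraries. With only the 2 groups in the fit 0 of either passed as well, while 49 and 24 had an unadjusted p under 0.05. Of 25 TOP and mTORC1 regulators 4 rose, including Sesn2, an inhibitor of mTORC1 induced by p53 (log2 change 1.17), and 7 fell, including the TOP-binding Larp1 (−0.65) and the mTORC1 activator Rheb (−0.36). Of 22 elongation factors and other TOP mRNAs, Eef1g and Nap1l1 fell. Of 10 genes around p53, 6 rose and 1 fell. With only the 2 groups in the fit, and also without the libraries high in oestrogen-responsive genes, 0 TOP and mTORC1 regulators, 0 RNA polymerase I genes and 0 TOP mRNAs passed in limma. At an unadjusted p under 0.05 there were 12, 7 and 5 in the first of these fits and 3, 0 and 0 in the second, and the median of the RNA polymerase I genes was −0.33 with all libraries and −0.11 in the second. Of the genes around p53 3 rose in the first and 2 in the second.

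With doxorubicin alone at 4 h 0 members passed in limma, where 0.493% of all genes did. With voom on rebuilt reads 0 members passed either, here and in every other comparison described below. The ribosomal share was 11.46, 11.25, 10.58, 9.801 and 11.12% with doxorubicin, against the control values given for AMH, and the groups overlapped. The median log2 change was 0.12 and 62 of 78 were above 0. An unadjusted p under 0.05 was found for 10 members (12.82%) and for 1955 of 16226 genes (12.05%). The median was 0.362 for the 10 members coding for under 300 bases and 0.036 for the 13 of 700 bases or more. Other nuclear genes coding for under 300 bases had 0.064 (295 genes), and the part of coding length was not tested. The smallest adjusted p belonged to Rps10 (log2 change −0.81, adjusted p = 0.059 by limma). In Rps16, Rps29 and Rpl11 every doxorubicin library was above every control library, with log2 changes of 0.30, 0.62 and 0.27 (adjusted p = 0.26, 0.31 and 0.27 by limma). The median of the 75 assembly factors was −0.36. The 4 h comparisons of AMH and of doxorubicin share their control libraries.

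With doxorubicin + AMH at 4 h nearly all members were lower than with AMH alone, though none passed singly. The ribosomal share was 11.01, 11.74, 10.72, 10.28 and 8.874% with doxorubicin + AMH, a range that overlapped with doxorubicin alone and, by 1 library on each side, with AMH alone. Against AMH alone 0 members passed and 0.222% of all genes did. The median was −0.24 and 76 of 78 members, which move together within a library, were below 0. An unadjusted p under 0.05 was found for 44 members and for 1802 of 16226 genes. Without the libraries high in oviduct markers it was found for 26 members. In 10 members, among them Rpl32, Rpl10, Rpl23a, Rpl6, Rps3, Rpl9, Rps13, Rpl22 and Rps15a, all 5 doxorubicin + AMH libraries were below all AMH libraries, and in Rps27l above. This separation was not counted over all genes. Rpl32, for instance, had 588.1, 641.8, 608.0, 586.5 and 506.7 FPKM with doxorubicin + AMH, and 803.8, 714.0, 791.9, 725.2 and 686.7 FPKM with AMH (log2 change −0.35 ± 0.10, adjusted p = 0.17 by limma). Against doxorubicin alone at 4 h 0 members passed and 0.00616% of all genes did, with a median of −0.11. An unadjusted p under 0.05 was found for 8 members and for 1123 of 16226 genes. The median was −0.326 for the 10 members coding for under 300 bases and −0.029 for the 13 of 700 bases or more. Other nuclear genes coding for under 300 bases had −0.135, and the part of coding length was not tested.

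Whether the effect of AMH differed with and without doxorubicin was tested as an interaction, the change with AMH under doxorubicin minus the change with AMH alone. At 4 h 0 members and 0.0% of all genes passed, with a smallest adjusted p of 0.18 among the members. Their median interaction was −0.34, against 0.002 over all genes, 71 of 78 were below 0, and 46 members had an unadjusted p under 0.05, as 2356 of 16226 genes did. The members with the smallest p were Rpl28 (log2 interaction −0.50 ± 0.12) and Rps16 (−0.64 ± 0.16). With only the 4 groups concerned in the fit 21 members passed, and with library weights 26, counts without a share of all genes under these settings. This interaction reuses the AMH and control libraries in which the rise was described, so it is no separate observation of it.

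At 24 h the order of the treated groups was different. The ribosomal share was 12.03, 12.12, 12.94, 10.23 and 11.59% with doxorubicin + AMH, and 12.1, 11.7, 9.621, 10.34 and 10.87% with AMH alone, against the doxorubicin and control values above. Doxorubicin + AMH had the highest mean, 11.78 ± 1.00%, followed by AMH with 10.93 ± 1.00%, doxorubicin with 10.28 ± 0.38% and controls with 10.20 ± 1.25% (SD, n = 5 each), and each neighbouring pair of groups overlapped. Against doxorubicin, doxorubicin + AMH changed 0 members, where 0.333% of all genes passed. Their median was 0.18, 76 of 78 were above 0, and 22 had an unadjusted p under 0.05, as 2017 of 16226 genes did. Rpl23a had 657.7, 642.7, 606.4, 526.1 and 543.9 FPKM with doxorubicin + AMH, and 451.7, 513.6, 413.1, 426.5 and 483.3 FPKM with doxorubicin, without overlap (log2 change 0.38 ± 0.10, adjusted p = 0.093 by limma). Rpl13 and Rpl36a were likewise apart, and did not pass. With library weights 23 members passed, a count without a share of all genes under that setting.

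The remaining 24 h comparisons gave 0 members that passed. AMH against control had a median of −0.02, with 7 members under an unadjusted p of 0.05, as 3058 of 16226 genes were. Of all genes 0.462% passed, and the smallest adjusted p among the members was 0.17 by limma. Doxorubicin + AMH against AMH had a median of 0.09, and 0.0986% of all genes passed. There 0 members were under an unadjusted p of 0.05, while 2301 of 16226 genes were. Without the libraries high in oviduct markers 15 members were. The interaction at 24 h had a median of 0.23, and 0.0% of all genes passed. There 9 members were under an unadjusted p of 0.05, as 675 of 16226 genes were.

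Between harvest times 0 members passed in any treatment. With doxorubicin + AMH the members' median log2 change of 24 h against 4 h was 0.17, with 76 of 78 above 0 (background 0.074% of all genes). An unadjusted p under 0.05 was found for 24 members and for 1267 of 16226 genes. With AMH alone the median was −0.16, with 70 of 78 below 0 (background 4.01%), and all 5 libraries of Rpl22 and Rpl30 at 24 h were below all at 4 h. An unadjusted p under 0.05 was found for 15 members and for 4321 of 16226 genes. Without the libraries high in oestrogen-responsive genes it was found for 2 members. With doxorubicin alone the median was −0.12, with 74 of 78 below 0 (background 1.58%), and in controls 0.11, with 63 above 0 (background 7.32%). In controls the 10 members coding for under 300 bases had a median of 0.324 and the 13 of 700 bases or more 0.005. Other nuclear genes coding for under 300 bases had 0.136 there, and the part of coding length was not tested. The test of whether the doxorubicin effect differed between times gave 0 members, where 0.0123% of all genes passed. The median was −0.22 with 77 of 78 below 0, and 21 members had an unadjusted p under 0.05, as 1580 of 16226 genes did. Harvest times were sampled from different libraries, and the labels give no date, so a batch by time cannot be told apart from time.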

How the data were processed

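Uterine RNA was purified with Qiagen reagents and sequenced by Novogene, per the labels' protocols. The authors deposited FPKM values per gene, scaled to gene length and library size, per the file headers, on build mm10, per the submitters' processing notes. The sources used here do not name the aligner, counter, annotation or strand setting, so reads of antisense or same-strand neighbours and of near-identical copies may be split.

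FPKM times gene length gave whole reads in all libraries (tolerance 0.01). A gene was tested if 5 or more of the 40 libraries reached 1 FPKM, which held for 16226 genes. limma 3.58.1 in R 4.3.3 was fitted to log2(FPKM + 1) over all 8 groups with an intensity trend and 32 residual degrees of freedom, two-sided, with Benjamini-Hochberg adjustment over all genes and a threshold of 0.05. This scale understates the change of low genes. Copies were found with megablast against GENCODE M21 transcripts, on the same assembly as mm10. Scripts used Python 3.11.15 with pandas 2.3.3, numpy 2.4.6 and matplotlib 3.10.9, and the R package data.table (1.17.8), and the fit was tested on simulated data. Depth of 16251563 to 27391049 reads gave every member above 10 FPKM at least 632 reads in each library.

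The members, lists and tests were chosen with earlier results of these data known. Named are, per comparison, up to 6 members that passed in each direction with the largest change, a set of members with known roles and their paralogues, the 3 highest and 3 lowest of each subunit, and the 5 most variable over group means. Pathway genes are named from the smallest p. Other members, named for their copies, for groups that do not overlap or for an interaction, were chosen after their values were seen. Alternatives covered pseudocount, filters, scaling, library weights, robust moderation, voom, the groups in the fit, a replicate block and each library left out, and leaving out libraries high in oviduct or oestrogen-responsive markers and adding reads of copies were chosen after seeing the data.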

Additional observations from a re-analysis of the deposited data

Results flagged for a closer look

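Of 120 groups of 5 libraries examined over 15 ribosomal protein values, 2 held a library far from the other 4, where chance gives about 1 in 20. In AMH 4 h library 4 Rps27a had 108.2 FPKM, while the other 4 libraries of that group had 248.2 to 286.4 FPKM, so that the gap took 0.786 of the range. In the same library its near-identical copy Gm8430 had 43.17 FPKM, the highest of the group, where the others had 15.85 to 25.51 FPKM. In control 24 h library 1 Rpl29 had 380.9 FPKM, while the others had 349.6 to 358.3 FPKM (0.722 of the range). Without that control library 1 member passed with doxorubicin at 24 h, against 5 with all libraries.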

How the results depend on the processing

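Counts are of members that passed, without the share of all genes under the same setting. With doxorubicin against control at 24 h they were 3 with no filter, 2 after scaling to other genes, with voom and without libraries high in oviduct markers, and 0 with only the groups compared or without libraries high in oestrogen-responsive genes, against 5. With AMH against control at 4 h they were 9 with no filter, 44 with only the groups compared and 53 with library weights, against 28. Library weights also gave 1 for doxorubicin against control at 4 h, 14 for doxorubicin + AMH against AMH at 4 h, 4 for AMH against control and 23 for doxorubicin + AMH against doxorubicin at 24 h, 2, 2 and 5 between times in controls, doxorubicin + AMH and AMH, 26 for the interaction at 4 h and 1 for doxorubicin and time, all against 0. With only the groups compared, doxorubicin + AMH against AMH at 4 h gave 2 and the interaction at 4 h 21. Between times in controls, leaving out libraries high in oviduct markers gave 1 and adding copies gave 1.

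Whether replicate numbers shared by groups pair the libraries was not settled. Same-numbered deviations correlated from −0.715 to 0.441, above 0.1 in 46 of 140 pairs, but differently numbered libraries were not compared. With the replicate block the count was 1 for doxorubicin against control at 4 h, 41 for AMH against control at 4 h, 7 for doxorubicin against control at 24 h and 1 between times in controls. Leaving out each library in turn gave 8 to 30 for AMH against control and 0 to 1 for doxorubicin against control at 4 h, 1 to 7 for doxorubicin against control, 0 to 2 for AMH against control and 0 to 2 for doxorubicin + AMH against doxorubicin at 24 h, 0 to 1 between times in controls and 0 to 5 with AMH. The causes were not tested. Of 276 alternatives for the 12 members named as changed, 212 kept their call, 64 lost it and 0 reversed.

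Members under 5 FPKM, such as Rps10, rest on few reads, and reads of members with near-identical copies can be split.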
